A study of Homo sapiens with 6 samples.

Results

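The USP genes encode the ubiquitin-specific proteases, the largest family of human deubiquitinases. Members were the rows of the deposited gene count table with a USP name and number, USP9X included and USP9Y left out, which gave 51 of 36601 rows. Of these, 47 had enough counts to be tested, among 17839 genes tested in all. The other 4 members, USP26, USP29, USP41 and USP50, had at most 4 reads in any library.

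The libraries were made from polyA RNA of U2OS, a cell line from a human osteosarcoma. All cells expressed TDP-43-mNLS-Clover under doxycycline induction, that is, TDP-43 with an altered nuclear import signal and a fluorescent tag. In the aggregate group, cells had received 50 nM fibril seeds made from recombinant TDP-43 low-complexity domain, and at 48 hours an image-based sorter had collected those with Clover aggregates. In the diffuse group, cells of the same induced line had received storage buffer alone, and cells with diffuse Clover signal had been collected at the same time. Each group held 3 libraries from separate transfections. Seeding and sort gate coincide with group, so their parts in any difference cannot be told apart, and all 6 libraries carry 1 batch label. Both groups therefore carry the tagged transgene, and no cells without it are included. In such bulk samples, fewer cells of a kind and less RNA per cell cannot be told apart.

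Ubiquitin is a small protein that is attached to other proteins, singly or in chains, to mark them for the proteasome, for sorting between membranes or for a change of activity. USP proteases cut it off again and thereby protect substrates, recycle ubiquitin or edit chains. Most are cysteine proteases with a shared catalytic fold, and each has its own substrates, partners and place in the cell, so the family touches transcription, DNA repair, cell division, endosomal sorting and protein quality control. TDP-43 is an RNA-binding protein that acts mainly in the nucleus, where it keeps many splice sites from being used.

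TARDBP, the gene of TDP-43, had 2533, 2589 and 2616 CPM (counts scaled to a common library size) in aggregate libraries 1, 2 and 3, against 7363, 7263 and 7681 CPM in diffuse libraries 1, 2 and 3. The counts do not separate the tagged transgene from the endogenous gene. Total gene counts ran from 41528336 to 46863013 in aggregate libraries and from 40279084 to 43091428 in diffuse libraries, so that a single read was worth 0.0212 to 0.0250 CPM. Between libraries of the same group, counts varied beyond sampling noise (chi-square over genes divided by its degrees of freedom, 2.59 to 6.34). Of 8 mesenchymal and bone markers, 7 were tested: 5 fell, RUNX2 rose by 0.56 on the log2 scale and SPARC did not pass, while TWIST1 was near 0 in both groups. VIM had 773 ± 24.5 CPM in aggregate cells and 1213 ± 35.0 CPM in diffuse cells, and COL1A1 had 1515 ± 103 CPM in aggregate cells and 3209 ± 76.9 CPM in diffuse cells (SD, n = 3 each). The summed mesenchymal level was 5232 to 5687 CPM in aggregate libraries and 8084 to 8444 CPM in diffuse libraries, and its part in the results was not tested. The summed level of 6 blood markers was 0.234 to 0.410 CPM in aggregate libraries and 0.351 to 0.547 CPM in diffuse libraries. No epithelial or endothelial marker passed, and of 3 neuronal markers RBFOX3 was higher while STMN2 and SNAP25 were lower in aggregates.

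USP genes moved in both directions, and the largest changes were falls. More members fell than rose, but only without an offset for gene GC content and length. Of the 47 tested members, 25 fell, 14 rose and 8 did not pass (edgeR quasi-likelihood test, Benjamini-Hochberg adjusted over all genes tested, threshold 0.05), and with an offset for gene GC content and length the split turned to 17 fallen and 22 risen. The share of all tested genes called was 75.4%, with 37.8% higher and 37.6% lower in aggregates, so a call in itself does not set a member apart. Restricted to genes averaging 10 CPM or more, as most members did, the share called was 85.9%. In 38 members the 3 aggregate and the 3 diffuse values did not overlap, which was true of 76.2% of all tested genes. The median log2 fold change, aggregates over diffuse, was -0.09 over members against 0.01 over all genes, and it was 0.06 over members with the GC and length offset. The median size of the change was 0.28 in members, against 0.41 over all genes. Members that fell by at least 1 on the log2 scale numbered 4 of 47, against 8.11% of all genes, and no member rose by as much, against 6.68% of all genes. The 4 were USP13, USP2, USP49 and USP37. With the GC and length offset USP13 (-1.70) and USP2 (-1.26) stayed past that size, while USP49 (-0.98) and USP37 (-0.88) did not.

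**Figure D1:**
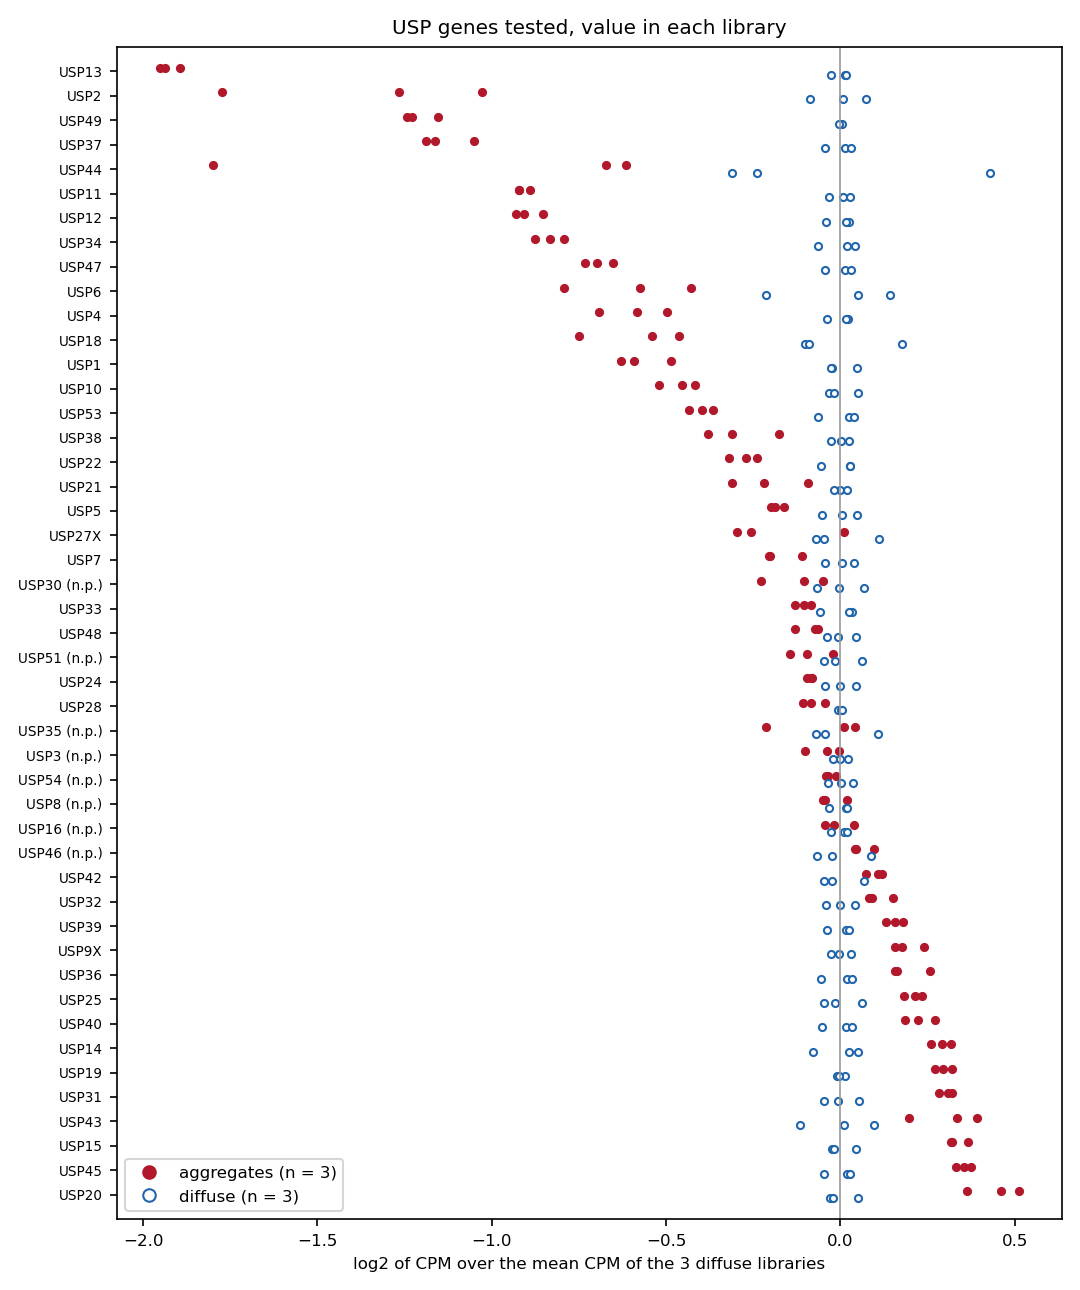
Each row is 1 of the 47 tested USP genes, ordered by fold change, and the horizontal axis is the log2 of the level over the mean of the 3 diffuse libraries. Filled red points are aggregate libraries, open blue points are diffuse libraries, and n.p. marks the 8 genes that did not pass. The separation is widest for USP13, whose aggregate values lie almost 2 log2 units to the left, while the largest rise plotted, of USP20, is 0.45 (without the GC and length offset).

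USP13, on chromosome 3 (GRCh38, 179652755 to 179789401, plus strand), fell furthest. It is a close relative of USP5 and is known for protecting the autophagy protein beclin-1. Its level was 30.4, 30.7 and 31.7 CPM in aggregate libraries, against 115, 119 and 119 CPM in diffuse libraries. Both groups were tight and far apart. The log2 fold change was -1.93 (SE 0.04, adjusted p = 5.4e-63), a level 3.80-fold lower in aggregates. Counted from spliced reads alone, its level was 39.4 ± 1.70 spliced CPM in aggregates and 136 ± 5.69 spliced CPM in diffuse cells (SD, n = 3 each). BECN1, the beclin-1 gene, rose by 0.31 on the log2 scale, a gene named after its value was seen.

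USP2 (chromosome 11, 119355215 to 119381726, minus strand), known for acting on cyclin D and on clock proteins, is weakly expressed in these cells. It had 2.43, 2.87 and 1.71 CPM in aggregate libraries, against 5.51, 5.88 and 6.16 CPM in diffuse libraries. The third aggregate library was the lowest, and the groups did not overlap. The log2 fold change was -1.31 (SE 0.11, adjusted p = 4.6e-17).

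USP49 (chromosome 6, 41789896 to 41895361, minus strand) removes ubiquitin from histones and is linked to co-transcriptional splicing. Its level was 26.1, 27.7 and 26.3 CPM in aggregate libraries, against 61.7, 61.9 and 61.5 CPM in diffuse libraries. The log2 fold change was -1.21 (SE 0.04, adjusted p = 2.9e-44). TOMM6, which overlaps USP49 on the opposite strand, rose at the same time, with a mean of 155 CPM in aggregates and 84.1 CPM in diffuse cells, and the strand setting of the counting is not given in the sources used here.

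USP37 (chromosome 2, 218450251 to 218568361, minus strand) stabilizes cyclin A and promotes entry into DNA replication. It had 33.6, 34.3 and 37.0 CPM in aggregate libraries, against 74.3, 77.3 and 78.3 CPM in diffuse libraries. The groups lay far apart, at a log2 fold change of -1.13 (SE 0.04, adjusted p = 2.1e-43).

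USP11 (chromosome X, 47232690 to 47248328, plus strand) acts in homologous recombination and in TGF-beta signalling. It had 92.5, 94.6 and 92.6 CPM in aggregate libraries, against 179, 171 and 176 CPM in diffuse libraries. Its log2 fold change was -0.91 (SE 0.04, adjusted p = 2.5e-41), and -0.88 with the GC and length offset. USP12 (chromosome 13, 27066142 to 27171896, minus strand) is a small protease that needs the WD-repeat proteins WDR48 and WDR20 for full activity. It had 64.3, 63.4 and 66.8 CPM in aggregate libraries, against 117, 123 and 122 CPM in diffuse libraries, for a log2 fold change of -0.90 (SE 0.04, adjusted p = 2.1e-39). With the GC and length offset the USP12 change was -0.71.

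USP34 (chromosome 2, 61187463 to 61470769, minus strand) is a very large member that acts on axin in Wnt signalling. It had 416, 403 and 427 CPM in aggregate libraries, against 708, 763 and 751 CPM in diffuse libraries. The gap between groups was many times the spread within them, at a log2 fold change of -0.83 (SE 0.04, adjusted p = 3.6e-37). With the GC and length offset the USP34 change was -0.60.

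**Figure D2:**
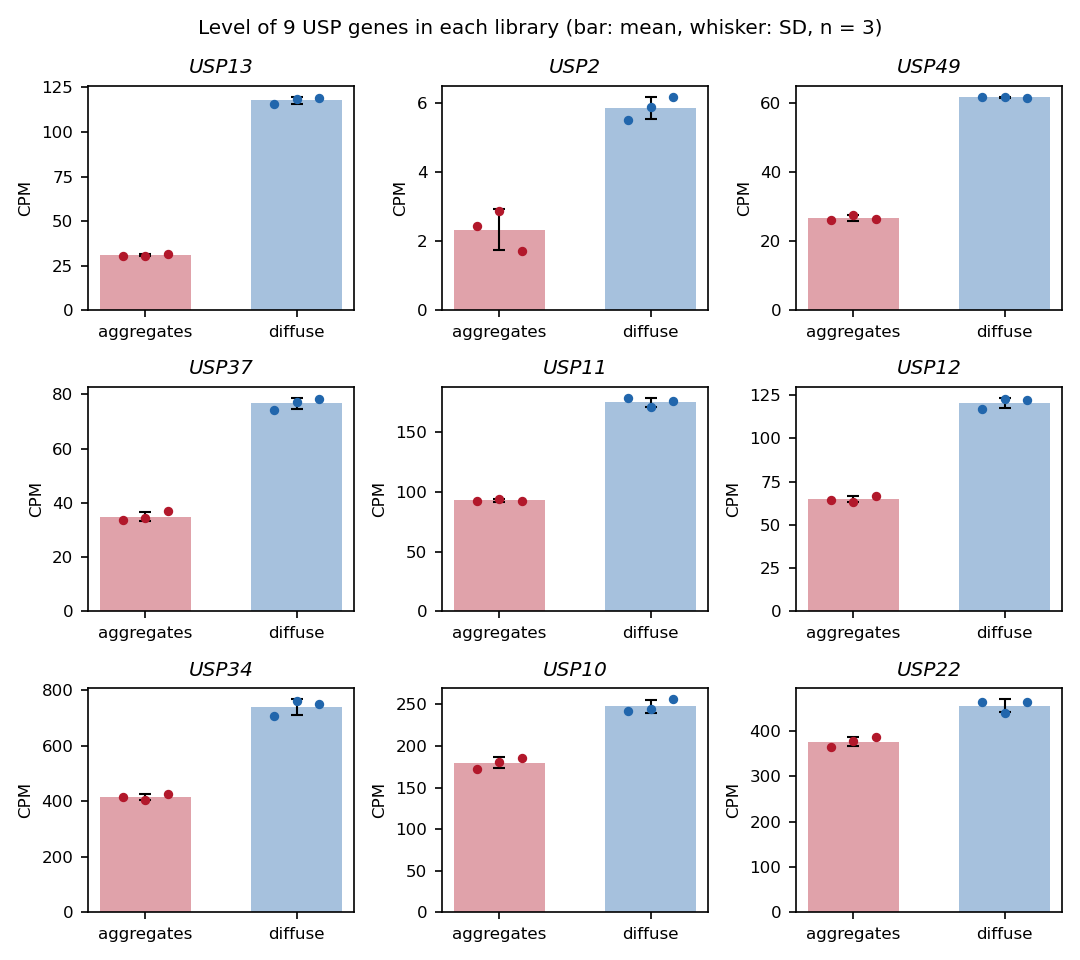
Level in CPM of 9 USP genes in each library, with aggregates on the left and diffuse cells on the right of each panel. Bars are means, whiskers are SD over 3 libraries and points are libraries. In all 9 panels the aggregate points lie below the diffuse points, by 3.80-fold in USP13 and by much less in USP22.

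Per kilobase of a single annotated transcript per gene, the members with the highest mean level over all 6 libraries were USP22 and USP10. In aggregates alone USP32, at a mean of 61.4 CPM per kilobase, was above USP10, at 59.8 CPM per kilobase. USP22 (chromosome 17, 20999593 to 21043760, minus strand), the protease of the SAGA coactivator complex, stood at 70.1, 72.4 and 74.1 CPM per kilobase in aggregate libraries, against 89.0, 84.0 and 89.1 CPM per kilobase in diffuse libraries. Its log2 fold change was -0.28 (SE 0.04, adjusted p = 7.8e-11), and -0.14 with the GC and length offset. CCDC144NL-AS1, which overlaps it on the opposite strand, also fell, by 0.59 on the log2 scale. USP10 (chromosome 16, 84699978 to 84779922, plus strand) binds the stress granule proteins G3BP1 and G3BP2. It stood at 57.5, 60.2 and 61.8 CPM per kilobase in aggregate libraries, against 80.6, 81.3 and 85.4 CPM per kilobase in diffuse libraries, and its log2 fold change was -0.46 (SE 0.04, adjusted p = 2.4e-21).

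Among the 3 members that work at the proteasome or on free ubiquitin chains, USP5 and its relative USP13 fell and the proteasome-bound USP14 rose. USP5, which takes apart unanchored chains, had 169 ± 2.31 CPM in aggregate cells and 191 ± 6.71 CPM in diffuse cells (SD, n = 3 each), a log2 fold change of -0.18. USP14, which trims chains from substrates on the proteasome, had 50.8 ± 0.99 CPM in aggregates and 41.5 ± 1.93 CPM in diffuse cells, a log2 fold change of 0.29 that was 0.50 with the GC and length offset. Its opposite-strand neighbour THOC1 did not pass. The directions of all 3 held with the GC and length offset.

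The 2 members listed for stress granules and autophagy were USP10 and USP13, and both fell. G3BP2, a stress granule protein that binds USP10, fell, with 194 ± 5.03 CPM in aggregates and 335 ± 4.45 CPM in diffuse cells. G3BP1 is not reported here, and of the 22 listed partners and substrates 12 fell and 7 rose.

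Of the 9 tested members with roles in replication or DNA damage, 8 fell and 1 rose, with a median of -0.17, but with the GC and length offset 4 fell, 4 rose and the median was 0.02. USP37 and USP11 led the list. USP47, which maintains the base excision repair polymerase, had 96.3 ± 2.73 CPM in aggregates and 156 ± 4.05 CPM in diffuse cells, a log2 fold change of -0.69 that was -0.45 with the offset. USP1, which clears ubiquitin from FANCD2 and PCNA, had 169 ± 8.82 CPM in aggregates and 250 ± 7.46 CPM in diffuse cells, a log2 fold change of -0.57. These 4 genes fell under the offset as well. USP7, which acts on the ubiquitin ligase MDM2, and USP48, USP24 and USP28 fell by 0.17, 0.09, 0.09 and 0.08 on the log2 scale, and each of these had a positive value with the offset. USP45, which acts on a nucleotide excision repair nuclease, was the one that rose, by 0.35. USP29 was not tested.

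Of 8 members listed for cell division, 4 fell, 2 rose and 2 did not pass, with a median of -0.08 that turned to 0.05 with the GC and length offset. USP13 and USP37 led the falls. USP44, a spindle checkpoint regulator, was counted with 4 to 8 reads in aggregate libraries and 10 to 17 reads in diffuse libraries, and its call (log2 fold change -0.95) was lost in DESeq2 (adjusted p = 0.12). USP9X, a very large protease with many substrates, was among the highest-counted members and rose, with 388 ± 11.6 CPM in aggregates and 340 ± 6.90 CPM in diffuse cells, a log2 fold change of 0.19 that was 0.42 with the offset. USP39, a protease-like subunit of the spliceosome that lacks catalytic activity, rose by 0.16, a call that was lost with the offset (adjusted p = 0.17), and its opposite-strand neighbours C2orf68 and TMEM150A rose too. USP33 fell by 0.11 and had a positive value with the offset. USP35 and USP16 did not pass.

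Of the 8 members that act on histones or in SAGA, 5 fell and 3 did not pass, with a median of -0.19. The median stayed negative under every alternative, but the calls were less stable. With the GC and length offset 2 rose and 4 fell, in DESeq2 3 fell, and against a fold of 1.2 only 1 fell. USP49 and the weakly expressed USP44 fell furthest, and USP22 fell by 0.28 on the log2 scale. USP21, which acts on ubiquitinated histones, had 30.6 ± 2.33 CPM in aggregates and 35.2 ± 0.43 CPM in diffuse cells, a log2 fold change of -0.20 that was -0.32 with the offset. USP27X, a single-exon relative of USP22, also fell, with overlapping groups. USP51, USP3 and USP16 did not pass. The other subunits of the SAGA deubiquitinase module are ATXN7, ATXN7L3 and ENY2, named here after their values were seen. ATXN7L3 had 101 ± 0.15 CPM in aggregates and 143 ± 2.88 CPM in diffuse cells, and ATXN7 and ENY2 fell by 0.25 and 0.31 on the log2 scale.

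The 3 proteases that WDR48 activates split. USP1 and USP12 fell, while USP46, the near relative of USP12, had 85.2 ± 1.85 CPM in aggregates and 81.7 ± 4.58 CPM in diffuse cells and did not pass (adjusted p = 0.15), although with the GC and length offset it rose by 0.31. WDR48 itself and WDR20, also named after their values were seen, fell: WDR48 had 54.1 ± 2.26 CPM in aggregates and 72.1 ± 1.29 CPM in diffuse cells, and WDR20 fell by 0.53 on the log2 scale.

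Of 5 members tied to TGF-beta and Wnt signalling, 3 fell and 2 rose, the same with the GC and length offset. USP11, USP34 and USP4 fell. USP4, which acts on the TGF-beta receptor, had 55.9 ± 3.73 CPM in aggregates and 84.1 ± 1.88 CPM in diffuse cells, a log2 fold change of -0.59. USP15, its close relative that acts on the receptor and on SMAD proteins, rose, with 89.1 ± 1.76 CPM in aggregates and 70.7 ± 1.88 CPM in diffuse cells, a log2 fold change of 0.33 that was 0.56 with the offset. USP9X rose as well.

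Among 7 members at membranes, endosomes or mitochondria, 3 rose, 2 fell and 2 did not pass, and with the GC and length offset 5 rose and none fell. USP20, an endoplasmic reticulum and endosome protease that helps receptors recycle, had the largest rise among USP genes without the offset, with 21.2 ± 1.10 CPM in aggregates and 15.6 ± 0.47 CPM in diffuse cells, a log2 fold change of 0.45 (SE 0.06, adjusted p = 1.4e-11). With the offset USP45 rose by 0.60, USP20 by 0.56 and USP15 by 0.56. C9orf78, on the opposite strand of USP20, rose by 0.34. USP19, which is anchored in the endoplasmic reticulum, had 82.4 ± 1.41 CPM in aggregates and 67.1 ± 0.61 CPM in diffuse cells. USP32, a Golgi and endosome protease, had 317 ± 8.46 CPM in aggregates and 294 ± 8.70 CPM in diffuse cells, a log2 fold change of 0.11 that was 0.29 with the offset. USP6, a primate oncogene derived in part from USP32 and near-identical to it over much of its length, had 15 to 17 reads in aggregate libraries and 19 to 26 in diffuse libraries, so its fall is uncertain (DESeq2 adjusted p = 0.15). USP8, which edits endosomal cargo, and USP30, which opposes mitophagy, did not pass.

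The remaining members were few per role. USP18, which removes the ubiquitin-like protein ISG15, was near the bottom of the expression range and fell, with 2.14 ± 0.21 CPM in aggregates and 3.19 ± 0.36 CPM in diffuse cells, and its reads can be shared with the near-copy USP41. USP36, the nucleolar member, had 156 ± 6.24 CPM in aggregates and 137 ± 4.51 CPM in diffuse cells and rose by 0.19, or by 0.34 with the offset. USP53 and USP54 are long classed as lacking activity. USP53 had 50.5 ± 1.21 CPM in aggregates and 66.6 ± 2.60 CPM in diffuse cells, a log2 fold change of -0.40 that was -0.14 with the GC and length offset. USP54 did not pass, at 161 ± 1.73 CPM in aggregates and 164 ± 4.07 CPM in diffuse cells. Outside the role lists, USP25, USP31, USP40, USP42 and USP43 rose by 0.10 to 0.31 on the log2 scale, and USP25, USP31, USP40 and USP42 by 0.24 to 0.52 with the offset, while USP2 and USP38 fell, USP38 by 0.29 and without a call under the GC and length offset (adjusted p = 0.31).

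**Figure D3:**
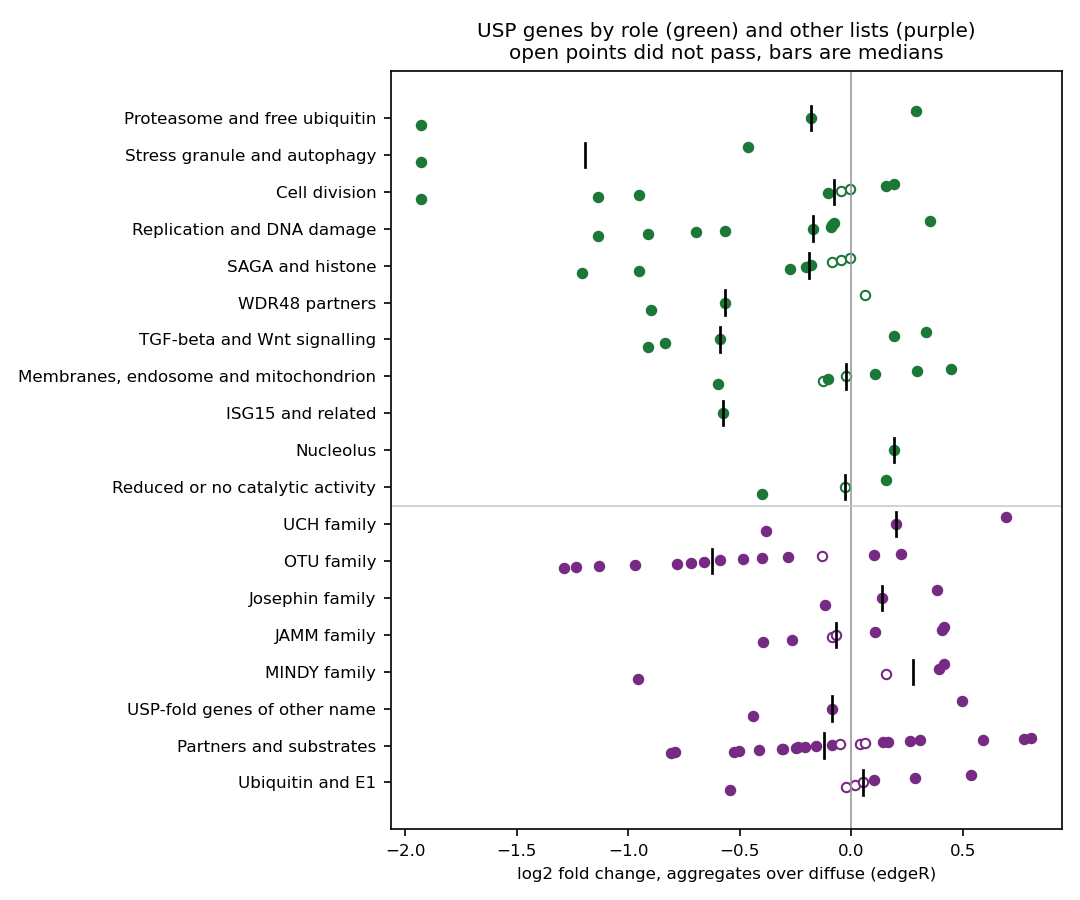
Log2 fold change, aggregates over diffuse, of each tested gene by list, with USP role lists in green above the grey line and other lists in purple below it. Filled points passed the test, open points did not, and black bars are medians. USP13 stands alone at the far left, and among the other lists the OTU family has a median of -0.63.

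In 34 called members with spliced reads in the intron table, 32 had the same direction in spliced reads as in gene counts. Both counts come from the same libraries, so this is not an independent check. The members that differed in direction were USP42 and USP43, neither beyond the spread between libraries. USP42 had 23.9 ± 1.31 spliced CPM in aggregates and 24.7 ± 2.42 in diffuse cells, and USP43 had 0.44 ± 0.09 spliced CPM in aggregates and 0.48 ± 0.07 in diffuse cells (SD, n = 3 each).

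Because a ratio between 2 genes of the same library is free of library scaling, close relatives were set against each other. Of 19 pairs, 16 had both genes tested, and in 11 of them the log2 count ratios of the aggregate and diffuse libraries did not overlap, a count to be read beside the 76.2% of single genes whose groups did not overlap. With 3 against 3 libraries the two-sided exact permutation test cannot go below p = 0.1, which each of the 11 pairs reached (0.15 when adjusted over the pairs). The ratio of USP5 to USP13 moved most, with a log2 ratio of 2.44 ± 0.04 in aggregates and 0.70 ± 0.07 in diffuse cells. USP11 over USP15 stood at 0.07 ± 0.04 in aggregates and 1.31 ± 0.05 in diffuse cells, so a clear excess of USP11 reads over USP15 reads in diffuse cells was near parity in aggregates. USP12 over USP46 stood at -0.39 ± 0.01 in aggregates and 0.56 ± 0.08 in diffuse cells, and USP4 over USP15 at -0.67 ± 0.08 in aggregates and 0.25 ± 0.04 in diffuse cells. In both pairs the gene with more reads differed between the groups. In 5 pairs the members were called in opposite directions by the gene test, namely USP4 and USP15, USP11 and USP15, USP20 and USP33, USP25 and USP28, and USP32 and USP6, although USP33 and USP28 had positive values with the GC and length offset. The pairs USP36 and USP42, USP22 and USP27X, USP44 and USP49, USP31 and USP43, and USP35 and USP38 overlapped.

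**Figure D4:**
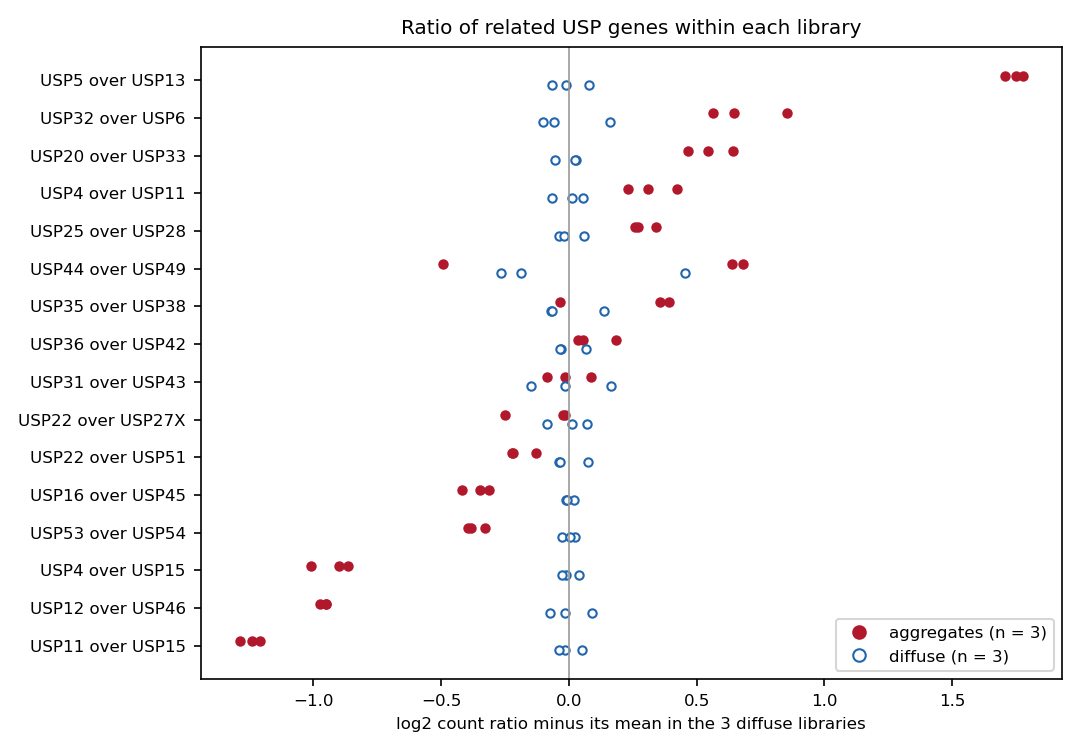
Log2 count ratio of 16 pairs of related USP genes in each library, minus its mean in the 3 diffuse libraries. Filled red points are aggregate libraries and open blue points are diffuse libraries. USP5 over USP13 lies far to the right and USP11 over USP15 farthest to the left.

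USP transcripts also differed in splicing. A cluster is a group of introns that share splice sites, and the percent use of an intron is its share of the spliced reads of its cluster. Among 251 tested clusters in 42 USP genes, 14 changed (edgeR diffSpliceDGE, Simes test per cluster, adjusted over all tested clusters), or 5.58%, against 5.02% of all tested clusters. They lay in 14 genes, or 33.3% of the USP genes with a tested cluster, against 14% of all such genes. These gene shares are not adjusted for clusters per gene: the 42 USP genes held 251 tested clusters, against 35898 clusters and 12622 genes in all. The share per cluster is the like comparison. In 4 of the 251 tested USP clusters the cluster passed and an intron moved by at least 10 points of percent use, as in 1.4% of all tested clusters. These were in USP54, USP36, USP12 and USP53. In 9 of the 14 an intron absent from the GENCODE 29 annotation passed the test. The same share over all changed clusters was not taken, so this count does not set USP genes apart.

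Among changed clusters the largest move was in USP54, whose gene level did not pass. An intron of another USP53 cluster moved by 19.8 points without passing (adjusted p = 0.17). A cassette exon of 141 bases (chromosome 10, 73504850 to 73504990, GRCh38, minus strand), exon 21 of 23 in a protein-coding transcript and a multiple of 3 in length, had an inclusion of 60.9, 52.6 and 58.4% in aggregate libraries, against 36.2, 36.7 and 33.3% in diffuse libraries. Every aggregate library was above every diffuse library. Inclusion here is the mean of the reads on both sides of the exon over that mean plus the reads that skip it. The skipping intron took 23.3, 29.4 and 25.3% of cluster reads in aggregate libraries, against 43.3, 43.6 and 47.4% in diffuse libraries, and the cluster had an adjusted p of 1.2e-05. The exon is shown because it holds the largest move of percent use among the changed USP clusters, with the exon in capitals.
USP54 exon 21: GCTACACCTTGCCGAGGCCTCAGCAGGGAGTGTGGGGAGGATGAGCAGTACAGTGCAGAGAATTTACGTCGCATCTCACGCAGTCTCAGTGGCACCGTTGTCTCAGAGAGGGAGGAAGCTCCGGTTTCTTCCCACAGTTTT

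USP3, which acts on ubiquitinated histones, made more use of an exon that the annotation lacks. Its gene level did not pass, although with the GC and length offset it rose by 0.15 (adjusted p = 0.0011). Its 44 bases (chromosome 15, 63588533 to 63588576, plus strand) are not a multiple of 3. Inclusion was 4.99, 4.94 and 3.76% in aggregate libraries, against 0.50, 0.63 and 0.46% in diffuse libraries. The exon was thus rare in both groups but much more used in each aggregate library, with a cluster adjusted p of 3.2e-04. The sequence is given from 63588520 to 63588701, with the exon in capitals and the intron around it, up to the next annotated exon, in lower case.
USP3 exon: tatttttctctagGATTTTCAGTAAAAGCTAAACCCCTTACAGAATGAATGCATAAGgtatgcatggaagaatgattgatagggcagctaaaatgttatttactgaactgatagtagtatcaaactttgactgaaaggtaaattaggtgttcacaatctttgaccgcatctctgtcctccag

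USP10 had a second such exon. Its 118 bases (chromosome 16, 84735056 to 84735173, plus strand) had an inclusion of 2.12, 3.06 and 3.98% in aggregate libraries, against 0.14, 0 and 0% in diffuse libraries, where 2, 0 and 0 reads entered it. In the same cluster, an intron joining exons 2 and 5 of the 14-exon transcript took 1.58, 1.40 and 1.52% of reads in aggregate libraries, against 0.37, 0.54 and 0.33% in diffuse libraries, and the cluster adjusted p was 3.1e-07. USP13, the member that fell furthest, used an unannotated donor site (intron 179701180 to 179706933 on chromosome 3, plus strand) in 3.17, 4.35 and 4.29% of cluster reads in aggregate libraries, against 1.05, 0.39 and 0.62% in diffuse libraries (adjusted p = 0.0016). Each of these events carried a small share of the reads of its gene.

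Alternative ends and non-coding exons moved in another 3 genes. In USP36, the intron to a distal last exon (chromosome 17, 78787659 to 78798399, minus strand) took 11.6, 13.3 and 14.4% of cluster reads in aggregate libraries, against 4.25, 0.89 and 3.10% in diffuse libraries. The annotated intron 78797880 to 78798399 took 29.9, 28.8 and 22.5% in aggregate libraries, against 46.7, 47.1 and 36.8% in diffuse libraries, and the cluster adjusted p was 1.5e-04. The most used intron of the USP36 cluster, the annotated 78797903 to 78798399 with a nearby acceptor, took 53.8, 56.6 and 60.5% in aggregate libraries, against 48.6, 49.8 and 55.8% in diffuse libraries, and did not pass. In USP36 the distal end was thus used more in every aggregate library. In USP53, the intron to a non-coding last exon (chromosome 4, 119217674 to 119220115, plus strand) took 11.5, 14.8 and 11.1% in aggregate libraries, against 3.67, 1.61 and 1.67% in diffuse libraries (adjusted p = 6.9e-05). In USP12, the intron from the first exon to an early last exon (chromosome 13, 27170330 to 27171591, minus strand) took 20.3, 10.6 and 17.5% in aggregate libraries, against 7.32, 3.83 and 6.39% in diffuse libraries (adjusted p = 0.027). The USP12 call rests on 13 to 35 reads in aggregate libraries and was lost without aggregate library 1 (0.25) or 3 (0.099) and without diffuse library 2 (0.22) or 3 (0.086).

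**Figure D5:**
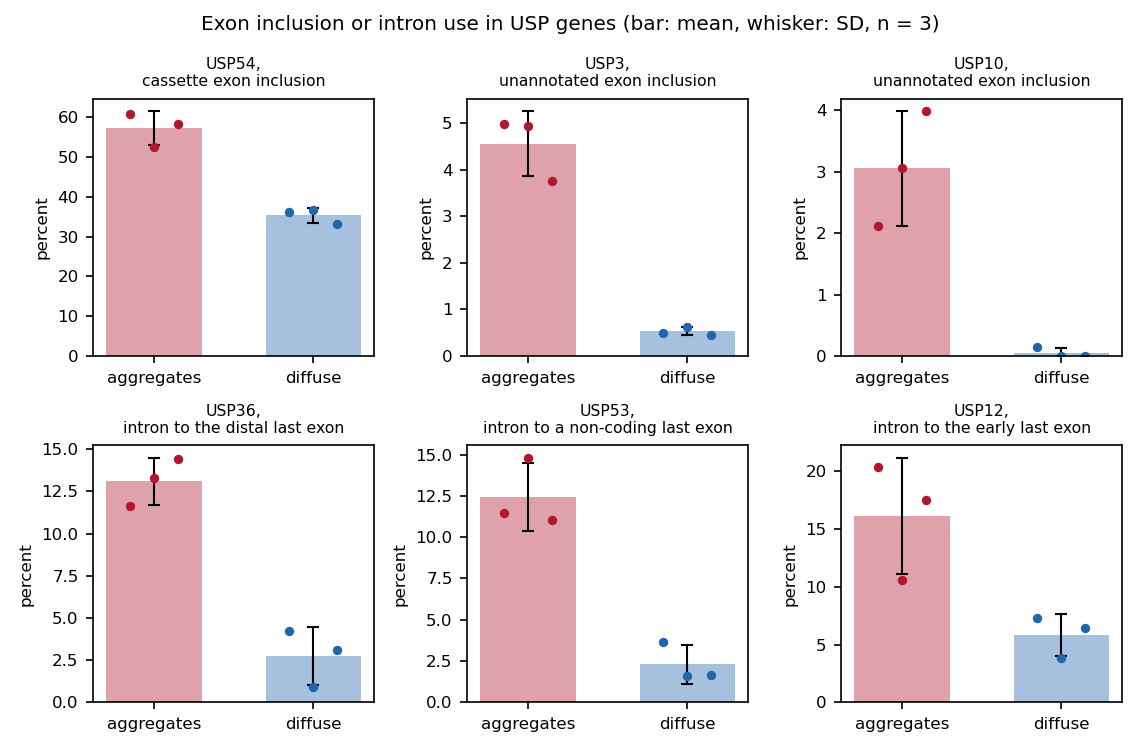
Exon inclusion (top row) and percent use of an intron (bottom row) in 6 USP genes, aggregates on the left and diffuse cells on the right of each panel, with points for libraries, bars for means and whiskers for SD (n = 3). The aggregate points lie above the diffuse points in each panel, at 57.3% against 35.4% for the USP54 exon and at 4.56% against 0.53% for the USP3 exon.

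Other splicing changes ran the other way and were small. In USP16, an unannotated intron (chromosome 21, 29043600 to 29046974, plus strand) took 1.72, 1.37 and 2.03% of cluster reads in aggregate libraries, against 5.67, 4.99 and 5.88% in diffuse libraries (adjusted p = 0.0014). In USP39, an exon of 120 bases (chromosome 2, 85621207 to 85621326, plus strand) annotated in a non-coding transcript had a mean inclusion of 0.23% in aggregates and 2.08% in diffuse cells, and its call was lost without diffuse library 3 (adjusted p = 0.14). Unannotated introns that skip 1 exon were used less in aggregates in USP1, USP32, USP34 and USP9X, each with a mean use of at most 1.26% in either group. In USP32 an annotated intron (60252443 to 60345480) in the same cluster went the other way, with 0.32, 0.31 and 0.22% in aggregate libraries, against no reads in any diffuse library (adjusted p = 9.5e-05). In USP28 an unannotated intron had no reads in any aggregate library, against 12, 2 and 1 reads in diffuse libraries 1, 2 and 3. Most of these reads thus came from diffuse library 1. The call of USP34 was lost without aggregate library 2 (0.11) or diffuse library 1 (0.088), that of USP9X without any 1 library (0.058 to 0.21), and that of USP28 without any aggregate library (0.11 to 0.16) or without diffuse library 2 (0.052).

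RefSeq promoter entries (GRCh38.p14) were matched for 39 of the 51 members, with 53 entries. The 250 bases before the start, as RefSeq places it, were searched on both strands for short motifs. The SP1 box GGGCGG was in 38 of 53 USP entries, or 71.7%, against 45% of 35116 entries of all genes. That comparison set includes genes that were not tested here, so the gap is not a trait shown to be particular to USP genes. The box was found in 10 of 10 risen and 18 of 20 fallen members with an entry. The antioxidant element core TGACNNNGC was in 5 of 53, or 9.43%, against 13.3% of all entries, in USP2, USP13, USP14, USP38 and USP54. No USP entry held the palindromic cyclic AMP element, the E2F or the NRF1 motif as searched. The promoters of USP13 and USP20 are shown because these members fell and rose furthest in the test without the GC and length offset. Motif matches are in capitals. Both stretches lie inside the gene spans used elsewhere here, which start at 179652755 (USP13) and 129834698 (USP20), both on the plus strand. They are thus upstream of the RefSeq start but not of these gene starts. In USP13 the capitals are the reverse complement of the SP1 box and the antioxidant core, and in USP20 they are the reverse complement of the SP1 box.
USP13, chr3:179652790-179653039, plus strand: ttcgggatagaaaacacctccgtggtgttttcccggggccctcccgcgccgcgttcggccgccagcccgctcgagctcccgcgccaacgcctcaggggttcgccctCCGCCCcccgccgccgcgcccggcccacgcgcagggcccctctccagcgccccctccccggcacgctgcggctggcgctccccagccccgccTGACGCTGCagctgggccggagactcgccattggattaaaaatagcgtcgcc
USP20, chr9:129835208-129835457, plus strand: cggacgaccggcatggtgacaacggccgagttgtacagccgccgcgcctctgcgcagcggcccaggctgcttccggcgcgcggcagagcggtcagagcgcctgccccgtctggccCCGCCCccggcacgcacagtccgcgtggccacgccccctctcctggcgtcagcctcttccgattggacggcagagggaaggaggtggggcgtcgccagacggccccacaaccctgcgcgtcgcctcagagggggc

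The other deubiquitinase families moved in both directions too. Of 35 tested genes, 19 fell, 12 rose and 4 did not pass, with a median of -0.13 that stayed negative with the GC and length offset. The OTU family fell most widely: 11 of 14 tested genes fell and 2 rose, with a median of -0.63, and 10 fell with the offset. VCPIP1, a partner of the segregase VCP, had 60.1 ± 1.62 CPM in aggregates and 147 ± 4.83 CPM in diffuse cells, and OTUD7A, OTUD1 and ZRANB1 fell by 1.23, 1.13 and 0.97 on the log2 scale. In the UCH family, UCHL3 rose (33.2 ± 0.57 CPM in aggregates and 20.6 ± 0.16 CPM in diffuse cells), the proteasome-bound UCHL5 rose by 0.20 and the tumour suppressor BAP1 fell by 0.38. Among the metalloproteases, PSMD14, the deubiquitinase of the proteasome lid, had 204 ± 3.32 CPM in aggregates and 153 ± 6.29 CPM in diffuse cells. STAMBP, which acts at endosomes, rose by 0.41, and MYSM1 and STAMBPL1 fell by 0.39 and 0.27. MINDY2 fell by 0.96, while MINDY1 and MINDY3 rose by 0.42 and 0.39. JOSD2 and ATXN3 rose by 0.38 and 0.14, JOSD1 fell by 0.12 and ZUP1 fell by 0.54. Of the genes with the USP fold and another name, PAN2, a subunit of a deadenylase, rose by 0.50, USPL1, which acts on SUMO, fell by 0.44, and CYLD fell by 0.09 but had a positive value with the offset.

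Of 22 listed partners and substrates, 12 fell, 7 rose and 3 did not pass, with a median of -0.12 that turned to 0.02 with the GC and length offset. PSMD2, a proteasome subunit, had 666 ± 19.4 CPM in aggregates and 389 ± 16.4 CPM in diffuse cells. FANCI, a substrate of USP1, had 134 ± 3.59 CPM in aggregates and 235 ± 9.15 CPM in diffuse cells. Among ubiquitin and activating enzyme genes, RPS27A and UBA1 rose by 0.54 and 0.10, UBA7 fell by 0.54, and UBB and UBA6 did not pass.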

How the data were processed

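PolyA RNA was sequenced with a stranded kit, per the labels. Per the submitters' processing notes, the authors used fastp 0.23.2, STAR 2.7.11a and the hg38 build. The sources used here do not give the counter, its annotation or strand setting, or the version of LeafCutter. Both deposited tables hold raw counts per gene (36601 rows) and raw LeafCutter counts per intron (153462 introns).

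Genes were tested on the counts with edgeR 4.0.16 (R 4.3.3): filterByExpr, TMM scaling and a robust quasi-likelihood test, with Benjamini-Hochberg adjustment over all genes tested. Levels are CPM on TMM-scaled library sizes (biological coefficient of variation 3.08%), and fold changes are aggregates over diffuse. Introns needed at least 10 counts over the 6 libraries, and clusters at least 10 counts in every library. They were tested with diffSpliceDGE and placed in genes by GENCODE 29 splice sites. Introns annotated in full, with both ends matching, held 98.5% of tested intron counts. Per-library intron totals ran from 28529818 to 32020553 in aggregates and from 25341453 to 26907926 in diffuse cells. Pair ratios added 0.5 to both counts. Gene length is that of a single annotated transcript per gene (GENCODE basic set first, then protein coding, then the longest). Promoter sequences are RefSeq's.

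Every USP gene is named. Values in every library are given for members past the threshold with a log2 change of at least 0.7 in size and a mean of at least 1 CPM, and for the 2 with the highest CPM per kilobase. Up to 3 called members of a role list and up to 4 called genes of any other list are named. Some genes of the other lists are not reported here. Splicing events under 10 points, the promoters shown and the genes said to be named after their values were seen lie outside this rule. The members and lists were chosen with earlier results of these data known. The tests were checked on simulated data with far fewer changed genes and clusters than were called here. That check therefore does not cover data in which most genes change. Alternatives were DESeq2 1.42.0 and its size factors, other filters, a test against a fold of 1.2, a GC and length offset, a replicate block and leaving out each library.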

Additional observations from a re-analysis of the deposited data

How the results depend on the processing

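Of the 39 called members, 16 kept direction and call in all alternatives run on them: 13 fell and 3 rose. All 27 members with a log2 change of at least 0.2 in size kept their sign in every alternative. Against a fold of 1.2, 16 members remained called, 13 lower and 3 higher, and of all genes 4719 were lower and 4483 higher. The offset for GC content and length gave 22 risen and 17 fallen members, also with the replicate block added (22 and 17). It turned the sign of 11 members, none over 0.17 in size, to values, without and with the block, of 0.0706 and 0.0705 (USP48), 0.14 and 0.14 (USP24), 0.0766 and 0.0764 (USP33), 0.15 and 0.15 (USP54), 0.0597 and 0.0564 (USP35), 0.0940 and 0.0933 (USP28), 0.13 and 0.13 (USP8), 0.15 and 0.15 (USP3), 0.016 and 0.016 (USP7), 0.0676 and 0.0676 (USP16), and 0.0804 and 0.0818 (USP51), and that of CYLD to 0.16 and 0.16. The cause was not tested.

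USP16, not called, also turned to 0.0012 among genes of at least 1 CPM. Leaving out single libraries gave 12 to 15 risen and 19 to 25 fallen members, and moved USP35 over -0.0910 to 0.0210 and USP16 over -0.0350 to 0.0145. Without filtering, USP6 (adjusted p = 0.075) and USP28 (0.075) were lost, and in DESeq2 USP6 (0.15), USP44 (0.12) and USP27X (0.057).

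With the cluster F test the intron clusters changed numbered 2721, of which 25 were in USP genes. Leaving out single libraries left 1171 to 1318 intron clusters in all and 11 to 12 in USP genes. Without diffuse library 1 the USP28 cluster could not be fitted. The paralog log ratio USP31-USP43 turned to 0.0040 with 5 added to both counts and ran from -0.0783 to 0.0780 with libraries left out.

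Whether the shared replicate numbers pair the libraries cannot be settled here, and the main test treated them as unpaired. Same-numbered libraries correlated at 0.04, 0.11 and 0.13 in their deviations from group means, and differently numbered ones at -0.11 to -0.0027. Each library thus correlated best with its own number, a weak hint from the data. Deviations from a group mean cancel out within the group, so these correlations are not independent of each other. The replicate block left 14 risen and 25 fallen members and changed no member's call. Of USP clusters it left 12, losing those of USP9X (0.086) and USP28 (0.12).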
